A study of Mus musculus with 66 samples.

Results

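Cultured mouse neurons were compared between 2 sets of replicate libraries of the same sex and the same treatments. Set 2 was the 11 female libraries numbered 2, and set 1 was the 11 female libraries numbered 1. Each set held 1 library of each of 11 treatments, so that the comparison rests on 11 pairs matched by treatment, 22 of the 66 libraries of the series. The 11 female libraries numbered 3 (set 3) and the 33 male libraries, which carry the same numbers, served to place the difference. Libraries were assigned to the sets by their labels: sex, treatment and number. The members compared and the gene lists were chosen with earlier results of these data known.

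All cultures came from wildtype e16.5 embryos (the age in days), were separated by sex and grew in neurobasal medium with B27, per the labels. The treatments were no virus, a lentivirus with a nontargeting short hairpin RNA (shRNA, an RNA that lowers the mRNA it matches), and lentiviruses with shRNAs against 9 regulators of chromatin and transcription: the histone methyltransferases Ash1l and Kmt2c, the histone demethylase Kdm6b, the SET domain gene Setd5, the remodeller Chd8, the DNA methyltransferase Dnmt3a, Mbd5 of the methyl-CpG-binding domain family, the Mediator gene Med13l, and the neuronal transcription factor Tbr1. Doses were meant to leave each target at about 50% of its level, the virus stayed on until day 6, and cells were lysed on day 10. Each library is a bulk sample of a culture, and the labels name neither the brain region nor what the replicate number marks (a culture, a litter, a plate or a day). P-values for set 2 against set 1 therefore measure the spread between 11 pairs that may come from a single culture for each number, and whether the sets differ by culture, handling or sequencing cannot be told apart.

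Neurons in culture connect by synapses and fire without outside input. Calcium that enters with firing switches on immediate early genes within minutes, largely through the transcription factors CREB and SRF, and these genes in turn raise a later group of secreted peptides and synaptic regulators. Cultures also mature with time, lose progenitors, hold glia and a mix of neuron types that depends on the dissected region, and raise stress responses when conditions are poor. Gene lists for these 4 themes, and for energy metabolism, are described here by the number of members called and by their median, to be read against the shares and the median over all genes given next.

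Set 2 and set 1 differed in the expression of most genes. Of 15679 genes tested, 9677 (61.7%) were called at an adjusted p below 0.05 by edgeR's quasi-likelihood test, 5062 higher in set 2 (32.3%) and 4615 lower (29.4%). The median absolute log2 change over all genes tested was 0.38. Against a required log2 change of 0.5, 1449 genes were higher (9.24%) and 1704 lower (10.9%). Of the called genes, 5161 moved the same way in 11 of 11 pairs, and for 1813 genes tested (11.6%) the 11 libraries of set 2 did not overlap the 11 of set 1. Without the no virus pair, whose set 1 library stood apart in its mitochondrial share, 9397 genes were called, and without the Setd5 pair, whose set 1 library is described last, 9751.

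Numbers 2 and 1 differed far less in males than in females. The same comparison of 11 male pairs called 14 of 15735 genes (0.089%), 7 in each direction, with a median absolute log2 change of 0.076 and 1626 genes at an unadjusted p below 0.05. Some male libraries went against their labels. In the male library labelled Setd5 shRNA replicate 1, Setd5 stood at 143.3 CPM and Kdm6b at 23.4 CPM, and in that labelled Kdm6b shRNA replicate 1, Setd5 stood at 44.4 CPM and Kdm6b at 39.5 CPM. The male Ash1l libraries labelled 1 and 2 took each other's place for Lhx8, with 7.82 and 1.03 CPM, where the other 10 male pairs were higher in 2. Without the Setd5 and Kdm6b pairs the male comparison called 0 genes, and without the Ash1l pair 200 (112 higher, 88 lower), so that its low count depended on that pair. The direct test of the difference between the sexes called 8738 of 16167 genes (54%). Male set 3 did differ from the other male sets, in 4399 of 15685 genes from set 1 (28%) and in 4997 from set 2 (31.9%). The female set 3 stood apart from both other female sets. It differed from set 1 in 6888 of 15663 genes (44%) and from set 2 in 7855 (50.2%), fits that share libraries with each other and with the main comparison. Within treatments, the leading principal component of the 33 female libraries held 42.5% of the variance and placed the 11 libraries of set 1 between -51.3 and -30.1, those of set 3 between -7.60 and 13.9, and those of set 2 between 30.7 and 52.1. The 3 female sets thus did not overlap on this axis. Values were centred within each treatment, so the 3 scores of a treatment sum to 0. With sets 1 and 2 at opposite ends, the middle place of set 3 follows largely from that centring.

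**Figure D1:**
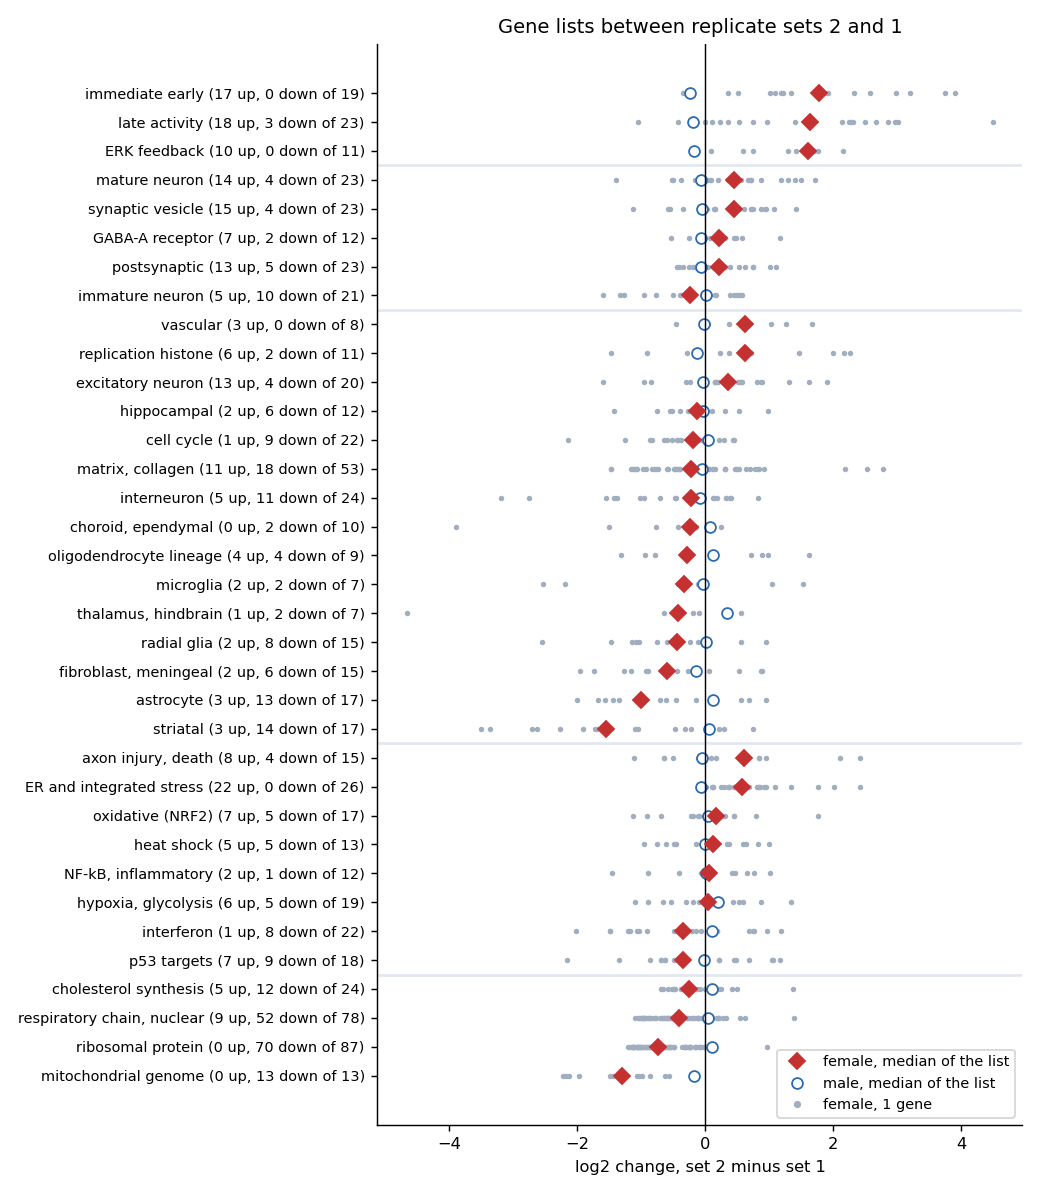
Log2 change between set 2 and set 1 for the gene lists with at least 7 members tested, grouped by theme. Grey points are single genes in females, red diamonds the median of each list in females and open blue circles its median in males; the numbers beside each name count genes called higher (up) and lower (down) in females. The activity lists sit farthest to the right, the striatal and mitochondrial lists farthest to the left, and the male medians lie between -0.24 (immediate early) and 0.35 (thalamic and hindbrain).

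Immediate early genes were higher in set 2. Of 19 tested, 17 rose and none fell, with a median log2 change of 1.79 against 0.01 over all genes tested. The list's summed level was 288.25 to 506.8 CPM (counts scaled to a fixed library total) in set 1 and 1630.4 to 2110.0 CPM in set 2. In males its median change was -0.24 and no member was called.

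Fos, a partner of Jun proteins in the AP-1 transcription factor, lies on chromosome 12 at 85473890 to 85477273 of mm10. It measured 4.09 to 38.6 CPM (median 10.1) in set 1 and 122 to 199 CPM (median 159.5) in set 2. The lowest library of set 2 was thus above the highest of set 1. The change was 13.4-fold, a log2 change of 3.74 ± 0.30 (standard error, n = 11 pairs), with an adjusted p of 2.2e-07 by edgeR. Set 3 lay between, with a median of 59.5 CPM, and the medians of the 3 male sets were 115, 81.1 and 55.5 CPM. All of these lay between the medians of sets 1 and 2.

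Npas4, a neuron-restricted factor that responds to calcium and little else, measured 3.41 to 20.3 CPM (median 10.4) in set 1 and 83.1 to 139 CPM (median 90.3) in set 2, a log2 change of 3.20 ± 0.18. Nr4a1, an orphan nuclear receptor, went from a median of 14.1 to 82.7 CPM. Its relatives Nr4a3 and Nr4a2 changed by 2.98 ± 0.11 and 1.90 ± 0.10. Fosb and Fosl2, 2 more AP-1 members, rose by 3.90 ± 0.21 and 2.33 ± 0.09. None of these 6 genes overlapped between the sets. The AP-1 partner Junb rose by 1.34 ± 0.24, and the clock gene Per1, which also responds to CREB, by 1.79 ± 0.11.

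The rise was not shared by every early gene. The zinc finger gene Egr1 changed by only 0.36 ± 0.12 (adjusted p = 0.011) and its sets overlapped. Egr3 measured a median of 7.6 CPM in set 1 and 5.69 in set 2, a log2 change of -0.34 ± 0.20 with an adjusted p of 0.15. Arc, which promotes removal of AMPA receptors from synapses, had a log2 change of -0.26 ± 0.16 with an adjusted p of 0.16. The related genes Egr2 and Egr4 rose by 1.19 ± 0.15 and 1.09 ± 0.20.

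Later activity genes were higher as well. Of 23 tested, 18 rose and 3 fell, and the median change was 1.63. Bdnf, the growth factor released by active neurons, measured 15.6 to 56.1 CPM (median 35.7) in set 1 and 158 to 257 CPM (median 207) in set 2. That is a 6.33-fold difference without overlap (log2 change 2.66 ± 0.14). Vgf, a secreted peptide precursor that Bdnf and activity induce, rose by 3.01 ± 0.18, and Scg2, a granin of dense core vesicles, by 1.63 ± 0.09. Pcsk1, which cuts such precursors, rose by 2.49 ± 0.14. Neuropeptide genes rose with them: Adcyap1 by 2.25 ± 0.11, Crh by 2.85 ± 0.21 and Cort by 2.28 ± 0.25. Nptx2, a pentraxin that gathers AMPA receptors on interneurons, rose by 2.30 ± 0.15, and Inhba, an activin subunit, by 2.14 ± 0.12.

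Acan was the list's widest change. It encodes aggrecan, the proteoglycan of the perineuronal nets around mature neurons, and measured 2.16 to 26.5 CPM (median 6.13) in set 1 and 88.8 to 256 CPM (median 178) in set 2, a log2 change of 4.50 ± 0.30. The 3 members that fell were the opioid precursors Penk (-1.04 ± 0.08) and Pdyn (-0.42 ± 0.10) and the neurite factor Nrn1 (-0.20 ± 0.09). Penk is also a member of the striatal list.

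Brakes on the ERK kinase cascade, which ERK itself induces, rose as a group. Of 11 tested, 10 rose and none fell, with a median of 1.61. Dusp6, a phosphatase specific for ERK, measured 17.5 to 34.7 CPM (median 27.7) in set 1 and 65.4 to 90.6 CPM (median 78.6) in set 2. Spry2 and Spry4, inhibitors of growth factor signals upstream of ERK, rose by 1.69 ± 0.09 and 2.15 ± 0.20. Spred1 measured a median of 66.8 and 69.4 CPM and was not called (adjusted p = 0.22).

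**Figure D2:**
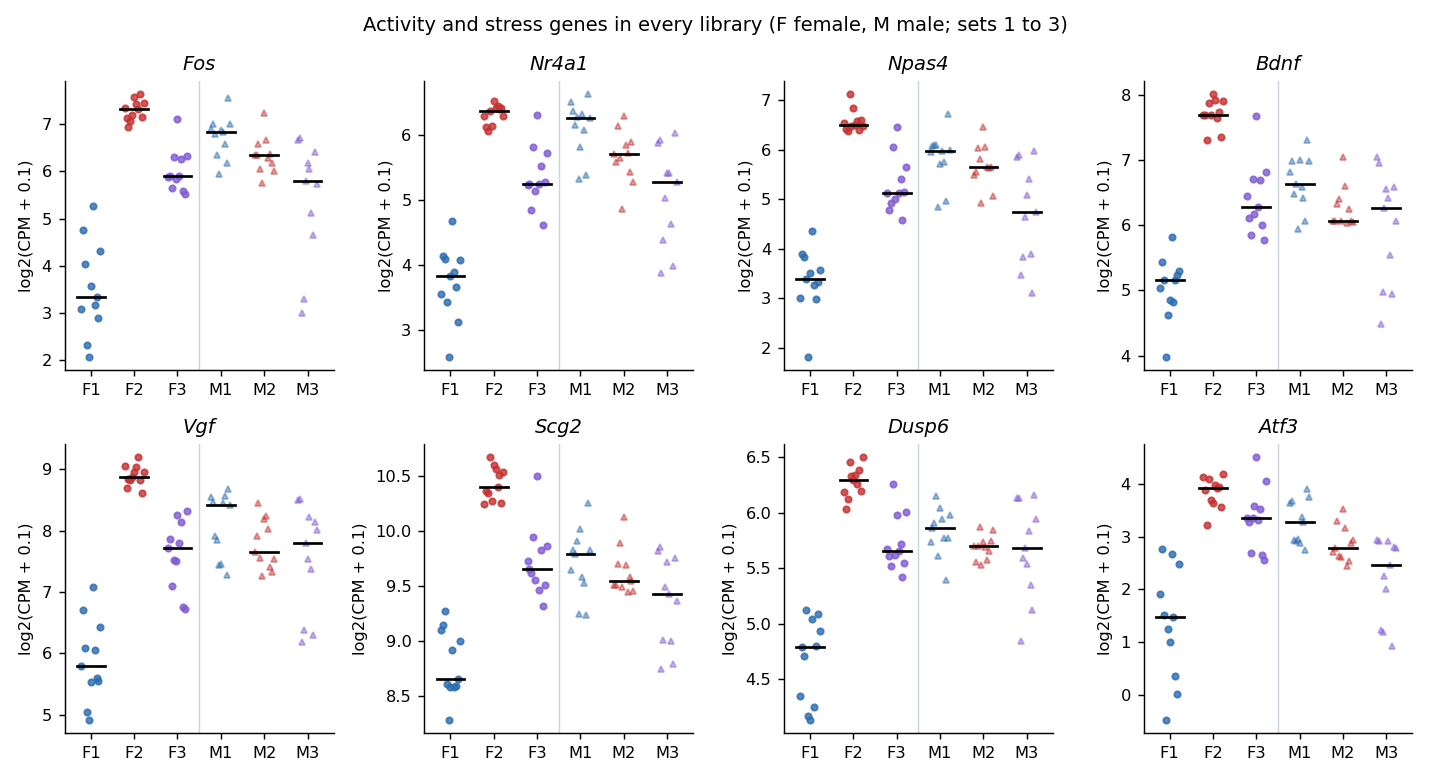
Level of 8 activity and stress genes in every library, as log2(CPM + 0.1), in female sets 1 to 3 (F1 to F3, circles) and male sets 1 to 3 (M1 to M3, triangles); each point is 1 library and black bars are medians of 11. In each panel F2 lies above F1 without overlap, and the F3 median and the male medians lie between those of F1 and F2.

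CREB binds the cAMP response element (CRE). Upstream sequences of 250 bases were searched on both strands for its half-site, TGACG or CGTCA, in the RefSeq promoters of the GRCm38.p6 build. Of 15 immediate early genes with a promoter entry, 13 held at least 1 half-site (86.7%). The shares were 3521 of 12148 genes tested (29.0%) and 5347 of all 27025 genes with an entry (19.8%). A gene with several entries was counted by the entry with the most matches. At least 2 half-sites were found in 8 of these 15, against 7.55% of genes tested. Late activity genes held one in 8 of 15 and ERK feedback genes in 3 of 9. Only 15 of the 19 immediate early genes had an entry. Activity genes without one included Egr1 and Arc, which rose little or not at all, and Vgf, and these were not searched. The full element TGACGTCA contains a half-site on each strand. It was found in 4 of the 39 activity genes with an entry (Maff, Pcsk1, Scg2 and Dusp1) and in 2.90% of genes tested. A match describes letters and is not a measured binding site. The lists were made of genes known to respond to activity, so the higher share describes the lists and not the difference between the sets.

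Shown here are 4 promoters of genes that the activity result turns on, chosen as 3 early factors and 1 late peptide gene with matches. Each runs 5′ to 3′ on the strand of the gene and ends at the base before its start, with half-sites or the full element in capitals.
Fos, chr12:85473640-85473889, plus strand, 2 half-sites: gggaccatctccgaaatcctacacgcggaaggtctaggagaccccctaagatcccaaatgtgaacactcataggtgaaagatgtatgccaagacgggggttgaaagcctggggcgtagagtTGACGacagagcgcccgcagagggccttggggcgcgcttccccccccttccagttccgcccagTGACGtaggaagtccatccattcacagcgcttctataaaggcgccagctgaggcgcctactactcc
Nr4a1, chr15:101266596-101266845, plus strand, 4 half-sites: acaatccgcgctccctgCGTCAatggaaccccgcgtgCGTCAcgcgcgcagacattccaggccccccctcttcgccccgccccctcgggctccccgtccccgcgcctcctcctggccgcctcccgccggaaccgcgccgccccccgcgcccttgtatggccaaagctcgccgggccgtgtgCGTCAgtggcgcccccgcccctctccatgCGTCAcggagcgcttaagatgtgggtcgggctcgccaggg
Npas4, chr19:4989972-4990221, minus strand, 2 half-sites: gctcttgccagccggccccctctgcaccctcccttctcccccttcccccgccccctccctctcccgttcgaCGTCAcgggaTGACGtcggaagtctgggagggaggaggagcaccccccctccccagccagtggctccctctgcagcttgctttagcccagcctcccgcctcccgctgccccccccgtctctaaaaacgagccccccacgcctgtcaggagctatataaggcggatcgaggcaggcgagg
Scg2, chr1:79440027-79440276, minus strand, full element: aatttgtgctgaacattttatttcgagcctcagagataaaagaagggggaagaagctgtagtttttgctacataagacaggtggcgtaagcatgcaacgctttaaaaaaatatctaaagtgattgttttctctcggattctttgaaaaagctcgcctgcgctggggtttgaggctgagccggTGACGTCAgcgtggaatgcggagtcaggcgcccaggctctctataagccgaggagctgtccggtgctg
Each of these genes rose in 11 of 11 pairs without overlap.

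Maturation genes moved less than activity genes and in both directions. Of 23 synaptic vesicle genes, 15 rose and 4 fell (median 0.46). The active zone scaffold Rims1 measured 56.4 to 163 CPM (median 137) in set 1 and 267 to 391 CPM (median 318) in set 2 (log2 change 1.42 ± 0.10), and the vesicle phosphoprotein Syn1 rose by 0.93 ± 0.07. Both sets were separate for these 2 genes. The SNARE gene Snap25 had a log2 change of 0.02 ± 0.07.

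Of 23 postsynaptic genes, 13 rose and 5 fell, with a median of 0.21. Grin1, the obligatory NMDA receptor subunit, went from a median of 102 to 224 CPM without overlap (log2 change 1.10 ± 0.07). Grin2a, the subunit that gains over Grin2b as synapses mature, rose by 1.01 ± 0.10, and Grin2b by 0.62 ± 0.12. The AMPA receptor subunit Gria2 had a log2 change of -0.14 ± 0.06 and an adjusted p of 0.065. With offsets for gene length and GC content the median of the postsynaptic list was -0.00, so its direction depended on that choice. Among 12 GABA-A receptor subunits, 7 rose and 2 fell (median 0.22). Gabrb1 rose by 1.17 ± 0.08 and Gabra3, an embryonic subunit, fell by 0.53 ± 0.07.

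Genes that rise as neurons mature were mostly higher in set 2, with 14 of 23 higher, 4 lower and a median of 0.46. The potassium channel gene Kcnj3 measured 29.8 to 67.9 CPM (median 52.8) in set 1 and 145 to 195 CPM (median 168) in set 2. The axonal channel gene Kcna1 rose by 1.30 ± 0.13. The neurofilament gene Nefm, which is also on the late activity list, rose by 1.40 ± 0.08. Calb1, a calcium buffer of selected neuron types, fell by 1.40 ± 0.08 without overlap, and Thy1 fell by 0.51 ± 0.06. The list median was 0.31 without the Chd8 and Med13l pairs.

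Genes of newborn neurons were split, with 5 higher and 10 lower of 21 and a median of -0.23. The tubulin gene Tubb2b measured 2873 to 3778 CPM (median 3362) in set 1 and 1803 to 2119.6 CPM (median 1982) in set 2 (log2 change -0.77 ± 0.07). Nnat, a small membrane protein of developing neurons, fell by 1.27 ± 0.08 and Igfbpl1 fell by 1.60 ± 0.15. In contrast Dcx, the microtubule protein of migrating neurons, had medians of 644 and 782 CPM (adjusted p = 0.059), and Tbr1 and Neurod2 rose. The list's median was -0.05 with length and GC offsets. The general neuronal gene Stmn2 was abundant in both sets, with a median of 1839 CPM in set 1 and 1945 in set 2.

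In bulk samples, fewer cells of a type and less RNA per cell cannot be told apart, and this holds for all marker genes that follow. Striatal genes were the marker group with the widest shift. Of 17 tested, 14 fell and 3 rose, with a median of -1.55 (0.05 in males). The list's summed level was 491.4 to 707.2 CPM in set 1 and 362.8 to 479.05 CPM in set 2.

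Drd2, the D2 dopamine receptor of indirect pathway neurons (chromosome 9, 49340627 to 49408177), measured 4.98 to 10.5 CPM (median 7.53) in set 1 and 0.116 to 1.75 CPM (median 0.611) in set 2, a log2 change of -3.37 ± 0.24. Adora2a, the adenosine receptor that marks the same neurons, went from a median of 19.3 to 1.82 CPM (log2 change -3.50 ± 0.21). Gpr6, a further receptor of these neurons, fell by 1.91 ± 0.12. Ppp1r1b, which encodes the dopamine-regulated phosphatase inhibitor DARPP-32 and is on in both pathways, measured 58.6 to 153 CPM (median 85.5) and 10.5 to 18 CPM (median 14.9), and Rxrg fell by 2.71 ± 0.13. These 5 genes had no overlap between the sets.

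Direct pathway genes did not move alike. Drd1, the D1 dopamine receptor, had medians of 11.4 and 10 CPM (log2 change -0.22 ± 0.08, adjusted p = 0.026). Tac1, the substance P precursor, rose by 0.76 ± 0.09, and it also stands on the late activity list. Transcription factors of the ventral forebrain fell, with log2 changes of -1.72 ± 0.21 for Isl1, -1.55 ± 0.13 for Six3 and -2.27 ± 0.19 for Zfp503.

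Regulators of the embryonic basal forebrain were at very few counts in set 2. Lhx8, a LIM homeobox gene of cholinergic and ventral neurons, measured 2.91 to 6.62 CPM (median 5.28) in set 1 and 0 to 0.144 CPM (median 0.0401) in set 2. This was the lowest log2 change among the named genes, -6.87 ± 0.30, and at such low counts its size is imprecise. Nkx2-1, which specifies the medial ganglionic eminence, went from a median of 2.73 to 0.262 CPM (-3.20 ± 0.21), and the homeobox gene Gbx1 from 1.84 to 0.0946 CPM (-4.43 ± 0.36). In males the order was another. There, Lhx8 had medians of 1.2, 5.96 and 0.93 CPM in sets 1, 2 and 3, Nkx2-1 of 1.01, 3.99 and 0.746 CPM, and Gbx1 of 0.561, 3.48 and 0.4 CPM. The female minus male differences were -9.10, -5.06 and -6.80. The male changes from set 1 to set 2 were 2.18 ± 0.46 (adjusted p = 0.1) and 1.82 ± 0.32 (adjusted p = 0.048) for Lhx8 and Nkx2-1, with the male Ash1l pair opposite to the other 10 for both genes. The highest medians thus fell on set 1 in females and on set 2 in males.

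Interneuron genes were mixed, with 5 of 24 higher, 11 lower and a median of -0.23. Vip, a peptide of one interneuron class, measured 6.86 to 36.2 CPM (median 20) in set 1 and 1.05 to 4.63 CPM (median 3.57) in set 2 (-2.75 ± 0.17). Calb2 and Htr3a, which mark overlapping classes from the caudal ganglionic eminence, had log2 changes of -1.55 ± 0.11 and -1.37 ± 0.11, and the factor Prox1 one of -1.42 ± 0.10. Sst, the peptide of another class, rose by 0.83 ± 0.11, and Gad1, which makes GABA in all classes, by 0.39 ± 0.08. Gad2 and Slc32a1, which also mark all GABA neurons, were not called.

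Cortical excitatory genes leaned higher, with 13 of 20 higher, 4 lower and a median of 0.36. Rorb, a factor of layer 4 neurons, measured 10.6 to 17.3 CPM (median 14.4) in set 1 and 28.3 to 43.9 CPM (median 35) in set 2 (1.31 ± 0.07), without overlap. The deep layer factors Sox5 and Fezf2 rose by 0.88 ± 0.06 and 0.81 ± 0.07. Foxp2, a layer 6 factor that striatal neurons also express, fell by 1.60 ± 0.09. The vesicular transporter Slc17a7 was not called (adjusted p = 0.17). Of 12 hippocampal genes, 2 rose and 6 fell (median -0.13), and of 7 thalamic and hindbrain genes, 1 rose and 2 fell (median -0.42).

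Astrocyte markers were mostly lower in set 2. Of 17 astrocyte genes tested, 13 fell and 3 rose, with a median of -1.0, and the list sum was 734.5 to 1256 CPM in set 1 and 501.1 to 840.4 CPM in set 2. Aqp4, the astrocyte water channel, measured 4.41 to 30.9 CPM (median 16.9) in set 1 and 1.87 to 8.42 CPM (median 5.9) in set 2 (-1.57 ± 0.16). Gfap, the astrocyte filament, fell by 2.0 ± 0.21, and the lipid carrier Apoe fell by 1.35 ± 0.11. The glutamate transporter Slc1a2 rose by 0.68 ± 0.07 and the factor Sox9 by 0.96 ± 0.11, as did Clu. Gjb6 was at a median of 0 CPM in both sets.

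Radial glia genes fell in 8 of 15 cases and rose in 2 (median -0.43). Fabp7, their fatty acid binding protein, measured 167 to 846 CPM (median 428) in set 1 and 38.3 to 109 CPM (median 86) in set 2 (-2.55 ± 0.14). Pax6 fell by 1.14 ± 0.17 and Hopx fell by 1.46 ± 0.14. Of 22 cell cycle genes, 9 fell and 1 rose (median -0.19), and the share that fell was not far from the 29.4% of all genes called lower. The replication clamp Pcna fell by 0.83 ± 0.07 and Cdk1, which drives mitosis, fell by 2.15 ± 0.29 from a median of 1.05 CPM. Mki67 was not called (adjusted p = 0.9). Replication histone genes leaned the other way, with 6 of 11 higher, 2 lower and a median of 0.62, although most were below 5 CPM.

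**Figure D3:**
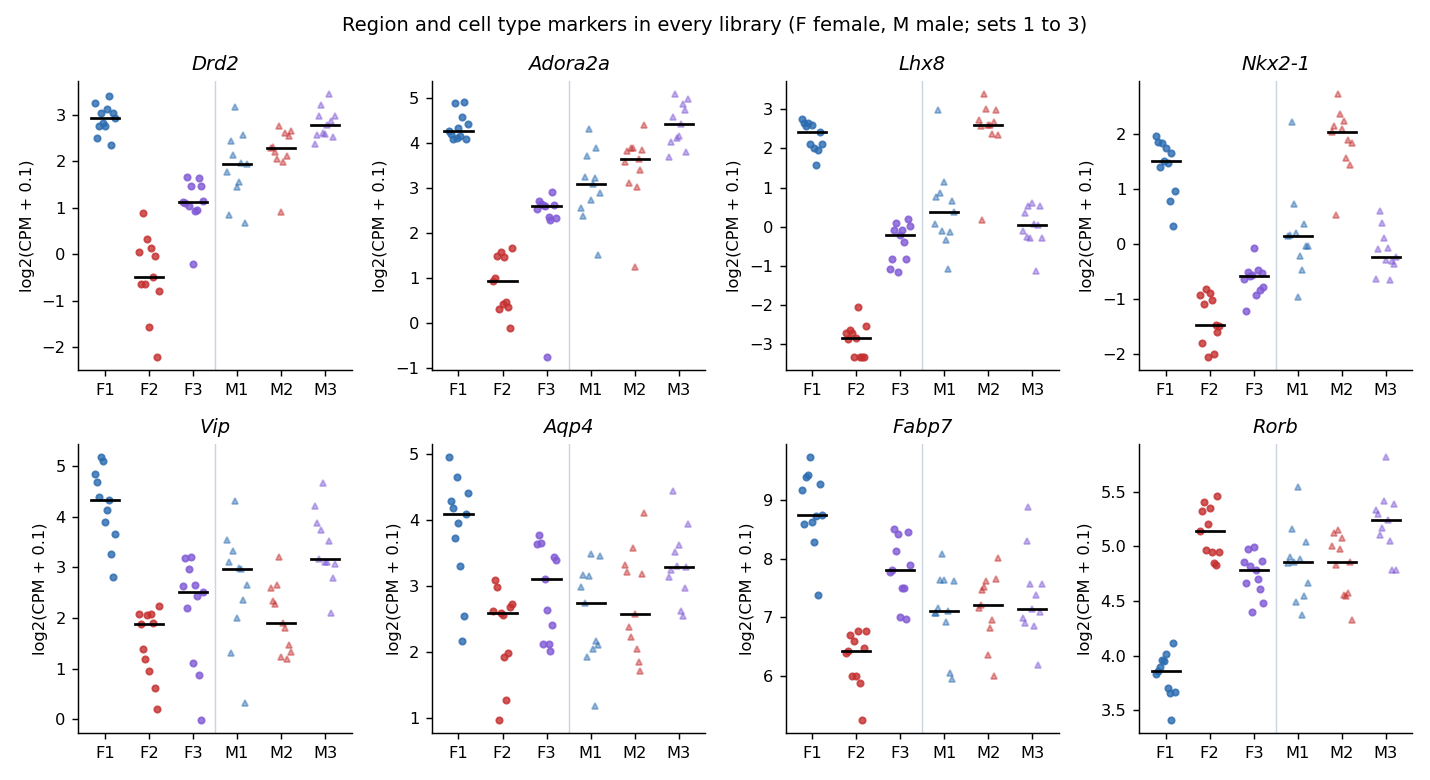
Level of 8 region and cell type markers in every library, as log2(CPM + 0.1), laid out as female sets 1 to 3 (F1 to F3, circles) and male sets 1 to 3 (M1 to M3, triangles), with 1 point per library and black bars for medians of 11. Drd2, Adora2a, Lhx8, Nkx2-1, Vip and Fabp7 are lower in F2 than in F1 without overlap, Rorb is higher without overlap, Aqp4 overlaps, and Lhx8 and Nkx2-1 peak in M2 among the male sets.

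Markers of cells that could be carried along were scarce. Microglial genes summed to 8.91 to 25.1 CPM in set 1 and 16.4 to 25.8 CPM in set 2, and Tmem119, P2ry12 and Trem2 were at a median of 0 in both. Of 7 microglial genes tested, 2 rose and 2 fell, and the median (-0.34) turned to 0.42 when counts were halved. Oligodendrocyte genes (4 higher, 4 lower of 9) summed to 51.6 to 79.1 CPM and 53.95 to 72.4 CPM, with Sox10 at a median of 0. Meningeal fibroblast genes fell in 6 of 15 cases and rose in 2 (median -0.60), with sums of 82.5 to 152.5 CPM and 58.9 to 94.4 CPM. Dcn fell by 1.73 ± 0.13. Vascular genes rose in 3 of 8 cases, led by the pericyte gene Rgs5 (1.67 ± 0.11), with sums of 11.3 to 23.1 CPM and 30.5 to 45.3 CPM. Of all genes, 29.4% were called lower and 32.3% higher. The meningeal share called lower and the vascular share called higher were not far from these. Choroid and ependymal genes fell in 2 of 10 cases and red cell genes rose in 1 of 2. The endothelial genes Cdh5, Ly6c1 and Slco1a4 were at a median of 0. The part that other cells play in the activity, stress and metabolism differences was not tested.

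Of the stress programs, that of the endoplasmic reticulum and the integrated stress response (ISR) moved as a block. Protein folding stress and amino acid shortage both raise translation of Atf4, which switches on genes of amino acid supply. Of 26 genes tested, 22 rose and none fell, with a median of 0.58 (-0.06 in males). Sesn2, which senses leucine and restrains growth signalling, measured 20.3 to 70.4 CPM (median 38.2) in set 1 and 141 to 187 CPM (median 159) in set 2 (2.01 ± 0.13). Atf3, a factor that Atf4 induces and that activity induces as well, rose by 2.42 ± 0.28. The cystine transporter Slc7a11 rose by 1.76 ± 0.16, the glutathione-degrading enzyme Chac1 by 1.10 ± 0.12 and asparagine synthetase, Asns, by 0.68 ± 0.07. Chaperones of the endoplasmic reticulum moved less, Hyou1 by 0.96 ± 0.07 and Hspa5 by 0.46 ± 0.06. Atf4 mRNA rose by 0.38 ± 0.07 and Ddit3, the CHOP factor, by 0.84 ± 0.09. Pdia6 was not called (adjusted p = 0.051).

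Atf4 and its partners bind an amino acid response element, TGATGCAA or TTGCATCA on the other strand. It was found in the upstream 250 bases of 6 of 24 genes of this list with an entry (25.0%): Atf3, Chac1, Herpud1, Nupr1, Slc7a11 and Vldlr. Among genes tested it was found in 79 of 12148 (0.650%), and among all genes with an entry in 0.918%. The list was made of genes of this response, so the higher share describes the list and not the difference between the sets. The promoters of 2 of these genes are shown as examples, with the element in capitals.
Chac1, chr2:119350992-119351241, plus strand, 1 match: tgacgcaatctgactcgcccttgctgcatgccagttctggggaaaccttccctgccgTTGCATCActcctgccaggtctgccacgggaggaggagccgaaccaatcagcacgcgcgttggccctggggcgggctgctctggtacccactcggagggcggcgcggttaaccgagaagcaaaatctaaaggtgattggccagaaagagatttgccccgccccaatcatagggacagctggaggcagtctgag
Slc7a11, chr3:50443614-50443863, minus strand, 2 matches: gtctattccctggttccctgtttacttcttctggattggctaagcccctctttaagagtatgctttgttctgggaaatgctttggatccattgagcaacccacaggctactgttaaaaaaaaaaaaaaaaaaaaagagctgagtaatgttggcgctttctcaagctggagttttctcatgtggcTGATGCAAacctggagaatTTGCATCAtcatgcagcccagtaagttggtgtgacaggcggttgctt
Both genes were higher in set 2 in 11 of 11 pairs.

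Other stress programs were split. Heat shock genes rose in 5 of 13 cases and fell in 5 (median 0.12), with a log2 change of -0.76 ± 0.08 for Hsp90aa1 and 0.99 ± 0.21 for Hspa1b. Oxidative stress genes under NRF2 rose in 7 of 17 cases and fell in 5 (median 0.17). Heme oxygenase, Hmox1, rose by 0.79 ± 0.09 and the peroxidase Prdx1 fell by 1.13 ± 0.09. Hypoxia and glycolysis genes rose in 6 of 19 cases and fell in 5 (median 0.05), with a log2 change of -1.10 ± 0.15 for Bnip3 and Ldha not called. For the heat shock, NRF2 and hypoxia lists these shares were not far from the 32.3% of all genes called higher and the 29.4% called lower. Of 18 p53 targets, 7 rose and 9 fell (median -0.35). The death receptor Fas fell by 2.15 ± 0.23 and Trp53inp1 fell by 1.34 ± 0.09, whereas Pmaip1 rose by 1.06 ± 0.11 and the cell cycle inhibitor Cdkn1a by 0.68 ± 0.09.

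Genes of axon injury and neuronal death rose in 8 of 15 cases and fell in 4 (median 0.60). Gadd45g, a growth arrest gene that activity also raises, measured 1.03 to 10.2 CPM (median 6.55) in set 1 and 20.7 to 32.7 CPM (median 24.2) in set 2 (2.11 ± 0.19). The death effector Hrk fell by 1.11 ± 0.08. Interferon-stimulated genes fell in 8 of 22 cases and rose in 1 (median -0.34), a share near the 29.4% of all genes called lower. Ifit2 stood at -1.07 ± 0.14. Of 12 inflammatory genes tested, 2 rose and 1 fell. Matrix and basement membrane genes fell in 18 of 53 cases and rose in 11 (median -0.21, and -0.50 with length and GC offsets). Their share called lower was also near 29.4%.

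Housekeeping genes of energy and translation were lower in set 2. Of 87 ribosomal protein genes tested, 70 fell and none rose, with a median of -0.74 (0.11 in males). Rps12, a small subunit protein, measured 284 to 555 CPM (median 319.8) in set 1 and 121 to 175 CPM (median 154) in set 2 (-1.15 ± 0.08). Reads of ribosomal protein genes can be shared with their many processed pseudogenes, so single values are uncertain. Nuclear genes of the respiratory chain fell in 52 of 78 cases and rose in 9 (median -0.41). Cox6c fell by 1.0 ± 0.09. Cholesterol synthesis genes fell in 12 of 24 cases and rose in 5 (median -0.25).

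All 13 genes of the mitochondrial genome fell, with a median of -1.30. COX1, a subunit of cytochrome oxidase, measured 19520.5 to 50599 CPM (median 27433) in set 1 and 13125 to 15733 CPM (median 14590.5) in set 2 (-0.98 ± 0.10). Values of the short mitochondrial genes are uncertain because nuclear copies can share their reads. Mitochondrial genes took between 6.37% and 15.6% of counts in set 1 (median 7.45%) and between 3.65% and 4.31% in set 2 (median 4.04%), lower in 11 of 11 pairs. The exact two-sided sign-flip permutation test over pairs gave p = 0.000977, the smallest that 11 pairs allow, and 0.00195 after adjustment over 6 library measures. The value of 15.6% was the no virus library, and the other set 1 libraries held 6.37% to 8.53%.

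Library measures moved with these differences. The 50 most abundant genes took a median of 15.9% of counts in set 1 and 11.9% in set 2, lower in 11 of 11 pairs. Total counts of genes with a symbol ran from 23628021 to 34729520 in set 1 and from 17780457 to 66074822 in set 2, higher in 9 of 11 pairs (exact permutation p = 0.0986, which misses the threshold). Longer genes leaned higher in set 2. In 4 equal bins of length the median log2 change was -0.23, -0.04, 0.07 and 0.19 from the shortest to the longest, and Spearman's rho across 15289 genes, which are not independent replicates, was 0.256 with length and 0.162 with GC content. With offsets for both, the medians were 1.55 for immediate early genes, -1.66 for striatal genes, 0.65 for the ER and integrated stress genes and -0.57 for ribosomal protein genes. The part of RNA quality or library preparation in the length trend was not tested.

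The extremes of the comparison repeated these groups and added others. They were taken by size among called genes with a mean of at least 1 CPM. The same sign in at least 10 of 11 pairs was also required, which largely set the agreement between pairs. The mean was over both sets, so some genes, such as Uts2b and Lhx8, passed through 1 set alone. The 12 highest, all without overlap and higher in 11 of 11 pairs, were Evi2a (5.78 ± 0.45), Uts2b (5.17 ± 0.36), Ostn (5.14 ± 0.42), Sim1, Spata31d1b, Acan, Trbc2, Nrap, Fosb, Slc40a1, Fos and Lmod3 (3.32 ± 0.27). Ostn, which encodes the secreted peptide osteocrin, measured 0.547 to 6.58 CPM (median 3.08) in set 1 and 80 to 186 CPM (median 91.2) in set 2. Its neighbour Uts2b, a urotensin peptide gene, lies beside it on chromosome 16 (Ostn 27307489 to 27351212, Uts2b 27353322 to 27370239) and measured 0 to 0.537 CPM (median 0.123) and 3.21 to 12.4 CPM (median 5.12). Slc40a1, the iron exporter ferroportin, went from a median of 1.58 to 22.2 CPM. Among the 12 lowest, lower in 11 of 11 pairs, were Lhx8, Gbx1, Adora2a, Ddc (-3.48 ± 0.28), Drd2, Npy2r (-3.24 ± 0.17), Ankrd63, Capsl, Nkx2-1, Vip and Rxrg. Several of the low genes are at few counts in set 2, where fold changes are imprecise.

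For the lists drawn by pair, every treatment moved the same way, controls included. The mean log2 change over immediate early genes ran from 1.06 in the Kmt2c pair to 2.42 in the Dnmt3a pair, with 2.02 for no virus and 1.41 for nontargeting shRNA. Over striatal genes it ran from -1.67 (Chd8) to -0.99 (Ash1l), with -1.48 and -1.34 in the 2 control pairs. The astrocyte mean spanned the widest ratio of these lists, from -1.29 in the Chd8 pair to -0.19 in the Ash1l and -0.18 in the Kmt2c pair. The ER and integrated stress mean ran from 0.44 (Kmt2c) to 1.11 (Chd8), the mature neuron mean from 0.18 (Kmt2c) to 0.73 (Med13l), and the ribosomal mean from -1.14 (Med13l) to -0.24 (Kmt2c). The Kmt2c pair was thus nearest to 0 for 5 of these 6 lists. These are single pairs, so differences between treatments have no replicate.

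**Figure D4:**
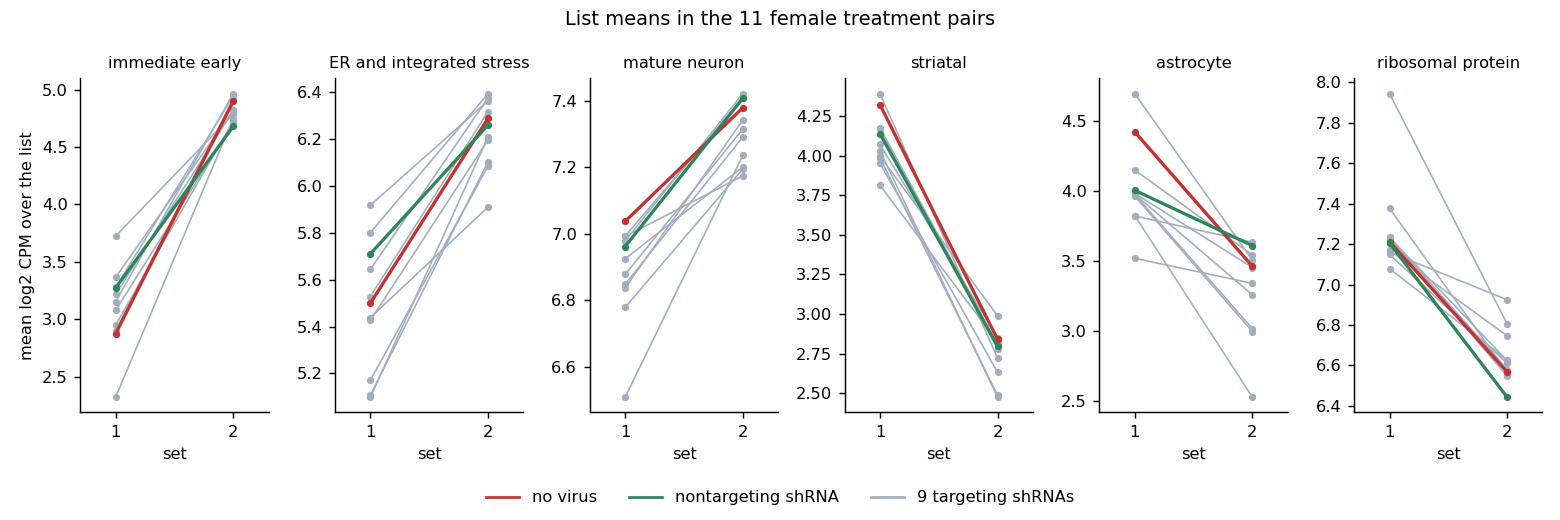
Mean log2 CPM over 6 gene lists in set 1 and set 2, with a line for each of the 11 female treatment pairs (no virus red, nontargeting green, targeting shRNAs grey). Immediate early, stress and mature neuron means rise and striatal, astrocyte and ribosomal means fall in 11 of 11 lines.

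The median library of set 3 had a list mean between those of sets 1 and 2 in 22 of 36 lists. Among the 13 lists with a median change of at least 0.5 in size this held for all 13, but these were taken for their wide gap between sets 1 and 2, which leaves more room for a middle place. The postsynaptic and interneuron lists were among those with set 3 outside, the former at 7.01 against 7.09 and 7.33 log2 CPM in sets 1 and 2. For immediate early genes these means were 3.15, 3.94 and 4.81 log2 CPM in sets 1, 3 and 2, and 4.65, 4.36 and 4.09 in male sets 1, 2 and 3. For striatal genes they were 4.07, 3.12 and 2.80 in female sets 1, 3 and 2, and 3.82, 3.95 and 4.03 in male sets 1, 2 and 3. In 10 of the 13 lists all 3 male sets also lay between the 2 female extremes. Astrocyte genes were one exception, with male means of 3.20, 3.32 and 4.07 around the female 3.98 and 3.45.

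The knockdown targets were lowered in both sets. Over all pairs, each target's own knockdown pair included, the mRNA of 8 of the 9 targets was called higher in set 2. Their log2 changes ran from 0.20 (Chd8) to 0.58 (Kdm6b), and Med13l was not called. Of all genes tested, 32.3% were called higher. With length and GC offsets 5 of the 9 changes turned negative, from -0.29 (Med13l) to -0.04 (Setd5). Relative to the nontargeting library of the same number, 15.7% to 46.7% of the mRNA was left in set 1 and 26.6% to 48.6% in set 2. The targets were less depleted in set 2 in 7 of 9 cases, with a mean log2 difference of 0.20, which did not pass the exact two-sided paired permutation test (p = 0.242, smallest possible 0.00391). Relative to the no virus libraries the difference was 0.58, with 8 of 9 less depleted (exact permutation p = 0.0117). The values of a set share its control library, so they are not independent, and the call depends on the control chosen. Dnmt3a, the DNA methyltransferase, gave the widest gap, with 15.7% left in set 1 and 29.3% in set 2 relative to nontargeting. Tbr1, a transcription factor of deep layer neurons, was left at 32.5% and 48.6%. Kmt2c, a histone methyltransferase, went the other way, with 46.7% and 29.4%.

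The library of Setd5 shRNA numbered 1 stood apart from the other 32 female libraries in a set of genes. In it, 59 genes were more than 2 log2 units above (23) or below (36) every other female library. Counted over genes tested, there were 51 such genes, against 0 to 12 in the others. The 12 were in the Setd5 shRNA library numbered 3, and that numbered 2 had 4. Next came the Chd8 and Med13l libraries numbered 1, with 8 each. Of the 36 low genes, 21 were listed at 0. The high genes held from 20 to 759 counts each. Among low counts of 1 to 20, 16.49% were odd in this library, against 23.8% to 26.3% in the rest of set 1, and the part that this plays was not tested.

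Y-linked genes were among the high ones. Ddx3y, a Y-linked RNA helicase, had 612 counts against at most 12 in any other female library, and Kdm5d, a Y-linked histone demethylase, 574 against at most 2. Of the other Y-linked genes, Uty had 0 counts and Eif2s3y 24, against at most 6 for Eif2s3y in any other female library. Ddx3y stood at 18.6 CPM, below the lowest male library at 54.9 CPM. Xist, which is transcribed from the inactive X, was at 1921 CPM, the highest of the female libraries, whose others ran from 494.8 to 1906 CPM. Thus 2 Y-linked genes were high in this library while Uty was not detected. Atp6v1b1, a proton pump subunit, had 458 counts against at most 17, Fcer1g 449 against at most 8, and Sytl5 759 against at most 158. On the low side, C1qtnf4 had 24 counts against at least 87, and Erdr1 was listed at 0.

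Few calls between set 2 and set 1 depended on the Setd5 pair. Leaving it out removes both of its libraries, so a lost call need not rest on the library numbered 1. Without the Setd5 pair, 9350 of the 9677 calls remained with no change of sign, 327 were lost (15 of these were no longer tested) and 401 were gained. Other pairs cost between 339 and 501 calls when left out and gained between 67 and 258, so the Setd5 pair gave the most gained calls. Of the 327 lost calls, 39 had a log2 change above 1 in size. Ddx3y was called lower in set 2 (-4.26 ± 1.05, adjusted p = 0.0026) from this library alone and was not tested without it. The call of Atp6v1b1 (-1.67 ± 0.64, adjusted p = 0.028) gave way to a log2 change of -0.99 with an adjusted p of 0.15. Brs3 (-4.21), Fam216b (-3.46), AW495222 (-3.02), Krt9 (-2.14) and Treml2 (2.30) were also lost, all with at most 18 counts in the Setd5 library. Nqo1, an NRF2 target with 334 counts there, kept its call without the pair, at a log2 change of -0.70 instead of -0.90.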

How the data were processed

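RNA was measured in 66 libraries of mouse neuron cultures, and the 33 female libraries are the subject, with the 33 male ones as a reference. The authors deposited a table of read counts per gene with 48716 rows and 72 library columns, of which 6 matched no sample here and were not used. Polyadenylated RNA was made into libraries with a stranded kit, per the labels' protocols, and STAR, featureCounts and the mm10 build are named in the submitters' processing notes, with versions not given in the sources used here. Rows without a symbol (18483) stayed out of library sizes and tests, and 149 rows that repeated a symbol were summed, which left 30084 symbols.

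The main test was edgeR 4.0.16 (R 4.3.3, limma 3.58.1) with filterByExpr, TMM scaling, robust quasi-likelihood fits, treatment as a block and Benjamini-Hochberg adjustment over all genes tested, at an adjusted p of 0.05. Levels are CPM values, that is counts scaled to a fixed total per library after TMM,, computed from the deposited counts, and list means are of log2 CPM with a prior count of 2. Log2 changes carry their standard error. Low counts were even more often than odd, so counts were also tested halved. The steps were tested on simulated counts in which few genes changed and the libraries of a set shared no other effect. Those counts did not test the steps where most genes differ or where a set shares a culture. Libraries with the same number deviated together: within treatments, 32 of 33 female libraries went best with their own number (r from 0.17 to 0.79 across genes). Treatment pairs come from the labels.

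Extremes were taken from genes called with the same sign in at least 10 of 11 pairs and a mean of at least 1 CPM. The 12 highest and 12 lowest of these were named. Also named were up to 4 members of each list by adjusted p, with further members where a description needed them. The 9 targets were named too, as were genes that stood apart in the Setd5 library or whose call was lost without the Setd5 pair. Gene models named only by number were counted and not named. The members and gene lists were chosen with earlier results of these data known, and the mitochondrial list uses the symbols of the deposited table. Alternatives were DESeq2 1.42.0, other scalings, no filter, halved counts, an unpaired fit, all 33 female libraries, total count as a covariate, pairs left out, a test against a log2 change of 0.5, and, chosen after seeing the data, offsets for GC content and length.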

Additional observations from a re-analysis of the deposited data

Results flagged for a closer look

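The difference between numbers 2 and 1 was not the same in females and males by the test of that difference in edgeR, which called 8738 genes. Given here as log2 female minus male difference are the 8 genes with the lowest p in that test among the 12 highest and 12 lowest of the female comparison. That choice by female change largely sets the sign of these differences and widens their size. Lhx8 and Gbx1, given above, had wider gaps than these 8. Those higher in females were Uts2b (5.20), Fosb (4.48), Nrap (4.47), Trbc2 (4.34), Slc40a1 (3.87) and Lmod3 (3.64). Those lower in females were Nkx2-1 (-5.06) and Npy2r (-3.73). In each sex the 11 pairs may come from a single culture for each number, so that sex and culture cannot be told apart.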

How the results depend on the processing

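Between 8399 and 10242 genes were called under the alternatives at the same threshold. The lower end was the unpaired fit without the treatment pairing (8399 calls, 4101 higher and 4298 lower). The upper end was the fit of all 33 female libraries. DESeq2 called 9915 genes, upper-quartile scaling 9612 (4176 higher, 5436 lower) and GC and length offsets 9544. Leaving out 1 pair gave 9244 to 9751 calls. A test against a log2 change of 0.5 called 3153 genes, 1449 higher and 1704 lower. In males, 0 genes were called without the Setd5 and Kdm6b pairs (0 higher, 0 lower), and 0 to 200 without 1 pair (0 to 112 higher, 0 to 88 lower), with 200 without the Ash1l pair. Target depletion differed by 0.58 relative to no virus and 0.51 relative to the median of other libraries, both past the threshold. With GC and length offsets the sign turned for Chd8 (-0.22), Kmt2c (-0.13), Mbd5 (-0.10), Med13l (-0.29) and Setd5 (-0.044); the cause was not tested. Of 3850 values of 177 named genes under 22 alternatives, 3721 kept direction and call, 121 lost the call, 3 gained it and those 5 turned. Depth limits genes near 1 CPM or less, such as Lhx8 and Evi2a, whose fold changes rest on few counts.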
